A study of Mus musculus with 9 samples.

Results

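Host genes of circular RNAs (circRNAs) that encode microtubule motors and proteins of the centrosome, the centromere and the spindle were followed through the differentiation of mouse myoblasts. They were chosen by name, as hosts whose symbol starts with Kif or Cep and a digit, or with Cenp, Dync, Dnah or Haus, and Kif14, Cep192 and Haus6 were left out by the same rule. This gave 81 of 6943 host genes and 413 of 37751 circRNAs. There were 29 Kif, 28 Cep, 10 Cenp, 7 Dync, 4 Haus and 3 Dnah hosts. Choosing by name brings in a gene that is no motor, Kif1bp, whose product binds kinesins. The 3 hosts left out each passed the threshold used here in the lower direction. Kif14 (edgeR adjusted p = 0.00166) and Cep192 (0.0202) did so at day 6 and Haus6 (0.0421) at day 3, so counts of lower hosts are counts without them.

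All libraries were made from C2C12 cells, a myoblast line of mouse skeletal muscle. The time points were day 0, when cells were proliferating and not yet confluent, and days 3 and 6 after confluent cultures had been moved to horse serum to induce myocytes that fuse to myotubes, with 3 libraries each. As the labels describe it, TRIzol total RNA went through a bead clean-up and a DNase step, both meant to raise the share of circRNAs, before an mRNA-seq library kit. Nothing in the labels says that the 3 libraries of a day are separate cultures. The p-values therefore reflect the spread of these samples alone, and that spread may be technical.

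Libraries held 208787 to 443955 reads across back-splice junctions, the joints that close an exon end onto an upstream exon start. As a check of the labels, circRNAs came from 13 of 14 muscle markers (none from Myh8). Levels are given in CPM, reads adjusted for the depth of each library. The sum of these markers was 1064 to 1560 at day 0, 11925 to 12582 at day 3 and 13650 to 18122 at day 6. No reads came from 4 endothelial or 3 white blood cell markers. Of 6 adipocyte markers Pparg alone had reads (94.9 to 422 CPM), of 5 osteoblast markers Runx2 alone (235 to 601 CPM), and of 5 genes of ciliated cells Spag16 alone, at up to 30.7 CPM. The table holds no linear reads, and in bulk RNA fewer cells of a type and less RNA per cell cannot be told apart.

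Kinesins (Kif) and cytoplasmic dynein (Dync) step along microtubules and carry organelles, vesicles and nuclei, and a set of mitotic kinesins builds the spindle and moves chromosomes. Cep proteins belong to the centrosome and its centrioles, Cenp proteins to the centromere and kinetochore, Haus proteins to augmin, which seeds new microtubules inside the spindle, and Dnah proteins to the dynein arms of motile cilia. When myoblasts leave the cell cycle and fuse, centrosomal proteins move from the centrosome to the nuclear envelope, and motors then space the nuclei along the myotube.

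Circles of the hosts that passed the test are shown by the 30 bases across their back-splice, in the order in which the RNA is read. Lower case marks the last 15 bases of the circle's last exon, and capitals mark the first 15 of its first exon. The letters are those of GENCODE M21 transcripts of GRCm38, and coordinates are as deposited, counted from 1. The first 3 are from Dync1i1 and the rest from Kif13b, Kif26b, Cep112 and Cep128.
Dync1i1 exons 7 to 10 (chr6:5905105-5923290, plus strand): gtcttccactgtcagAGGATGAGGAAGATG
Dync1i1 exons 2 to 6 (chr6:5757378-5800890, plus strand): cacatcagtctgaagGAAGCAAACATGTCT
Dync1i1 exons 6 to 10 (chr6:5800775-5923290, plus strand): gtcttccactgtcagGAGACGACTGCACAA
Kif13b exons 18 to 22 (chr14:64748446-64757584, plus strand): ttcgatcactgcagtAGAAGCAACATTGAA
Kif26b exon 3 (chr1:178678826-178679359, plus strand): ctgtacccctaccagGACCCTGCTTTCTCT
Cep112 exons 3 to 5 (chr11:108434126-108440596, plus strand): cagtgatgctcacagACAGGATTATGGAAA
Cep128 exons 6 to 10 (chr12:91325515-91348876, minus strand): ttgaagctccaggagTTAAAGGAGGATTTG
Cep128 exons 11 to 14 (chr12:91289489-91299077, minus strand): gccgcacagatcgagGCACTGAAGAAACAA
The Dync1i1 circles of exons 7 to 10 and 6 to 10 share their lower-case bases, since both end at exon 10, and differ in the capitals.

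The members were thinly covered. Together they held 14726 reads, 0.555% of all reads assigned to a host. The median member had 35 reads over the 9 libraries, 43 of 81 had under 50, and 5 hosts held 47.5% of the reads. Reads were listed in all 9 libraries for 12 hosts and in 1 library for 19. The filter on low counts kept 40 of the 81 hosts and 71 of the 413 circRNAs for testing. A host that was kept through its high group alone is likelier to differ, so counts among tested hosts do not speak for all members. Values of 0 made up 40.7% of the values of tested member circRNAs and 36.3% of those of all tested circRNAs. The smallest count above 0 was 2, so a value of 0 can hide a single read.

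Reads were listed for 65 member hosts at day 0 (80.2%), 58 at day 3 (71.6%) and 48 at day 6 (59.3%). Of all hosts in the table, 77.7%, 75.3% and 71.2% had reads on these days. The counts for member circRNAs were 220, 208 and 153 (53.3%, 50.4% and 37%), against 52.4%, 51.5% and 46.9% of all circRNAs. Of the day 6 libraries, replicates 1 and 2 had totals of 208787 and 243471 reads and replicate 3 had 443955, and the part of depth in these counts was not tested. The summed level of all members was 5464 ± 840 CPM at day 0 (SD, n = 3 here and below). It was 6184 ± 240 CPM at day 3 and 5097 ± 360 at day 6. The 3 ranges were 4826 to 6416, 5970 to 6443 and 4725 to 5444 CPM, and each pair of days overlapped except days 3 and 6. Within this nearly level sum, the sums of some roles differed between days. Hosts that passed singly are part of some of these sums, so a sum does not speak for every host of its role. The roles were assigned after values had been seen, so their sums are given as a description with no test.

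**Figure D1:**
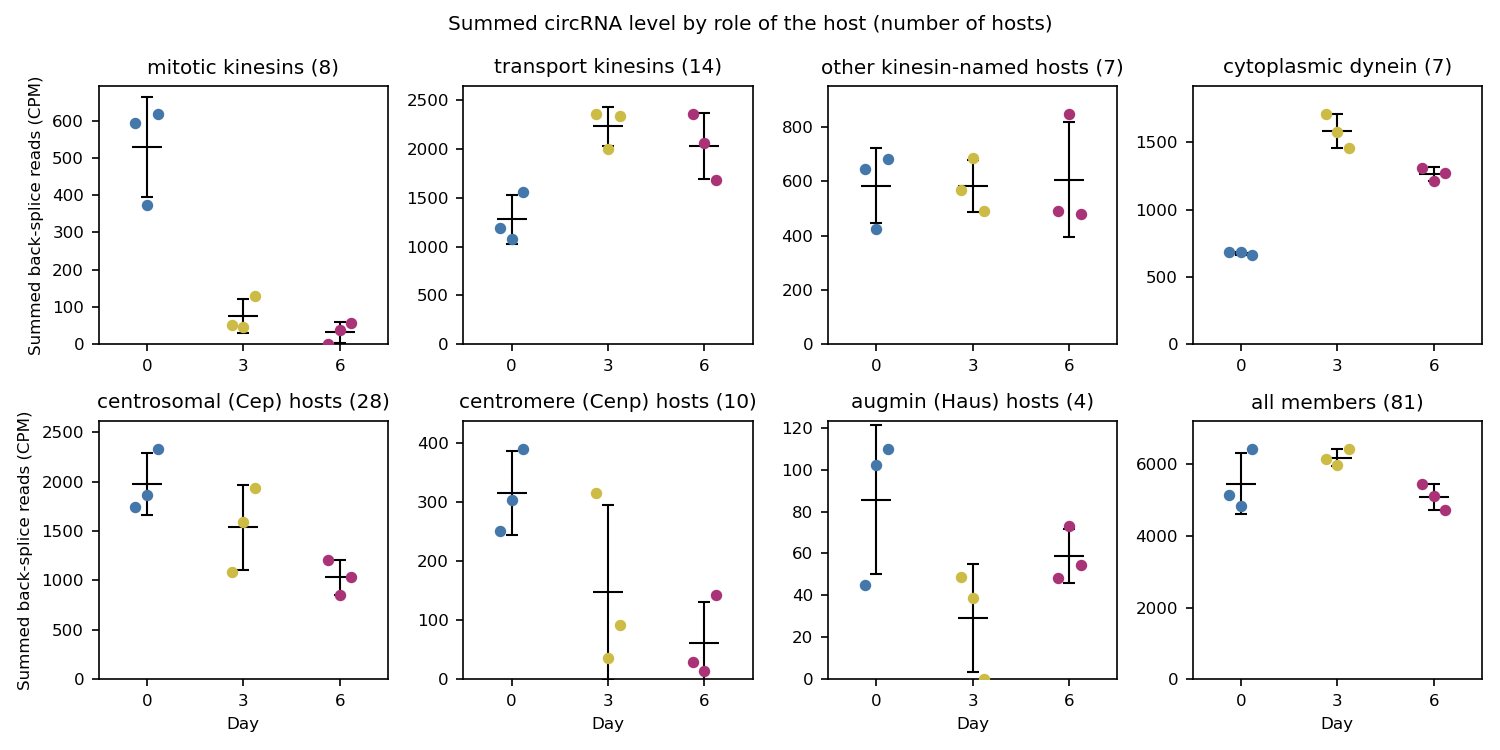
Summed CPM (y axis, from 0) of back-splice reads of member hosts by role at days 0, 3 and 6 (x axis); points are libraries, bars the mean ± SD (n = 3), cut off at 0 where they reach below it, and the number of hosts stands in brackets. Mitotic kinesins are at 374 to 619 CPM at day 0 and at 129.7 or less later. Transport kinesins and cytoplasmic dynein are higher at days 3 and 6 than in any day 0 library. These sums include Kif13b and Dync1i1, which passed singly, and dynein without Dync1i1 overlaps between all days. The 3 axonemal dynein hosts are not drawn.

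At day 3 against day 0, 2 of the 40 tested member hosts were higher by edgeR's quasi-likelihood test at an adjusted p of 0.05 (5%), against 3.05% of all 4135 tested hosts, and none was lower, against 0.895%. At an unadjusted p of 0.05 the member counts were 6 higher (15%, against 8.34% of all tested hosts) and 2 lower (5%, against 5.1%). DESeq2 called 2 higher (5%, against 4.09%) and 1 lower, Cep112 (2.5%, against 2.83%). At day 6 against day 0, 3 members were higher (7.5%, against 3.85% of all tested hosts) and 2 lower (5%, against 1.79%). The higher hosts were Dync1i1 and Kif13b at both days and Kif26b at day 6, and the lower ones Cep112 and Cep128. At an unadjusted p of 0.05 the day 6 counts were 4 higher (10%, against 9.17% of all tested hosts) and 6 lower (15%, against 8.3%). Both comparisons use the same day 0 libraries. The median log2 fold change of the tested members was -0.05 at day 3, against -0.02 over all tested hosts, and -0.63 at day 6, against -0.13. Estimates were below 0 for 67.5% of members and 53.6% of all tested hosts at day 6, and for 52.5% and 50.9% at day 3. Each median was the same when hosts with a day at 0 were set to their bound. Those bounds all lay away from the medians, so this could hardly have moved them and is no check of them.

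**Figure D2:**
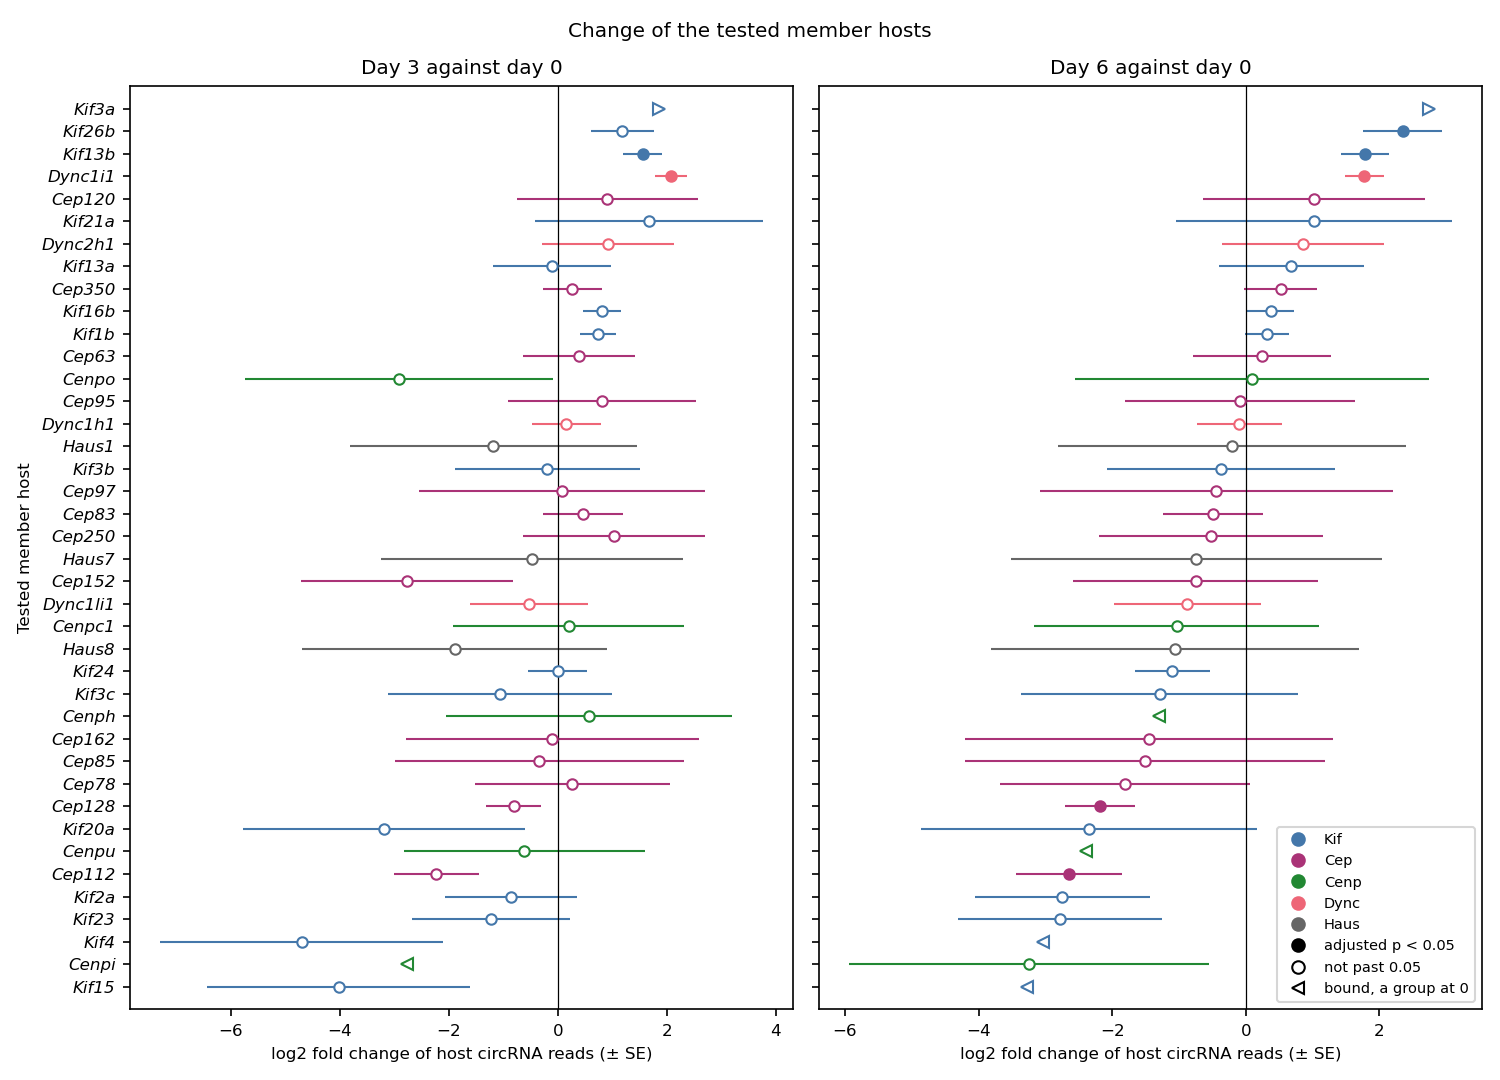
Log2 fold change (x axis) of the 40 tested member hosts (y axis) at day 3 (left) and day 6 (right) against day 0, with approximate SE bars; filled points passed an adjusted p of 0.05 by edgeR, triangles are bounds for hosts with a day at 0 reads, colours mark families. Dync1i1 and Kif13b are filled on the right of 0 in both panels. In the day 6 panel Kif26b is filled on the right of 0, and Cep112 and Cep128 on the left.

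Single circRNAs gave few calls. At day 3, 2 of 71 tested member circRNAs were higher, against 1.31% of all 8153 tested circRNAs, and none lower, against 0.270%. At an unadjusted p of 0.05 these counts were 9 (12.7%, against 6.14% of all) and 2 (2.82%, against 3.36%). DESeq2 called 4 higher (5.63%, against 2.09%) and 1 lower (1.41%, against 1.25%). At day 6, 1 was higher, against 1.47% of all, and 1 lower, against 0.515%. At an unadjusted p of 0.05 the day 6 counts were 10 higher (14.1%, against 6.62% of all) and 6 lower (8.45%, against 5.02%). DESeq2 called 3 higher (4.23%, against 3.34%) and 3 lower (4.23%, against 2.38%) at day 6. By edgeR's adjusted p, the higher ones were circles of Dync1i1 and the lower one the Cep112 circle of exons 3 to 5.

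Dync1i1 (ENSMUSG00000029757) encodes an intermediate chain of cytoplasmic dynein, the subunit that links the motor to its activator dynactin. Its summed circRNA level was 283.1, 319.1 and 197.4 CPM in the day 0 libraries, 1428, 1001 and 961 at day 3 and 809.6, 952 and 973 at day 6. Every later library lay above every day 0 library. The means were 267 ± 62.5, 1130.2 ± 259 and 912 ± 89.1 CPM (SD, n = 3). The level rose 4.23-fold at day 3 (log2 fold change 2.08 ± 0.29 SE, edgeR adjusted p = 5.41e-06) and 3.42-fold at day 6 (1.77 ± 0.29, 4.42e-05). The SE given throughout is approximate: edgeR gives none, and it was derived from each log2 fold change and its F statistic. Dync1i1 passed at both days under every alternative setting tried, including each left-out library.

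The reads came from 21 circles, 12 of them in 2 or more libraries. An intron of 104214 bases between exons 6 and 7 stood between the main ones. The circle of exons 7 to 10 (479 bases), downstream of it, was found in all 9 libraries with 57, 32 and 39 reads at day 0, 196, 82 and 153 at day 3 and 53, 118 and 136 at day 6. Its log2 fold changes of 1.58 ± 0.51 and 1.18 ± 0.50 did not pass (edgeR adjusted p = 0.139 and 0.34). DESeq2 called this circle higher at day 3 and not at day 6. The circle of exons 2 to 6 (466 bases), upstream of the intron, had 0, 0 and 10 reads at day 0, 84, 88 and 64 at day 3 and 15, 46 and 38 at day 6. It holds the start codon and codes for residues 1 to 153. It rose at day 3 by 4.26 ± 1.11 (log2, edgeR adjusted p = 0.0240), and at day 6 it stood at 3.11 ± 1.07 (0.162). The circle of exons 6 to 10 (595 bases) spans the intron. It had no reads at day 0, 24, 45 and 9 at day 3 and 42, 0 and 82 at day 6. Against a floor of 3 reads per library it was at least 7.94-fold higher at day 3 (edgeR adjusted p = 0.0492) and at least 11.6-fold higher at day 6 (0.0254), though 1 day 6 library had none. Neither day 3 call held with a minimum count of 10, with no filter, in a fit of 2 days only, or when replicate 1 or 2 of day 0 or of day 3 was left out. The adjusted p then ran from 0.0767 to 0.265 for exons 2 to 6 and from 0.0519 to 0.265 for exons 6 to 10. The latter was also lost with a replicate block (0.0575), without day 0 replicate 3 (0.0641) and without day 6 replicate 1 (0.0817) or 3 (0.112). Its day 6 call was lost with a minimum count of 10 (0.069) and without day 6 replicate 1 (0.0754) or 3 (0.108), and in a fit of days 0 and 6 only the low-count filter removed the circle. A circle of exons 8 to 10 had 10, 0 and 0 reads at day 0, 66, 27 and 33 at day 3 and 7, 11 and 44 at day 6, and did not pass (adjusted p = 0.422 and 0.442). The share of Dync1i1 reads in the exons 7 to 10 circle was 56.1% at day 0, 41.0% at day 3 and 38.4% at day 6. No test was made of these shares.

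**Figure D3:**
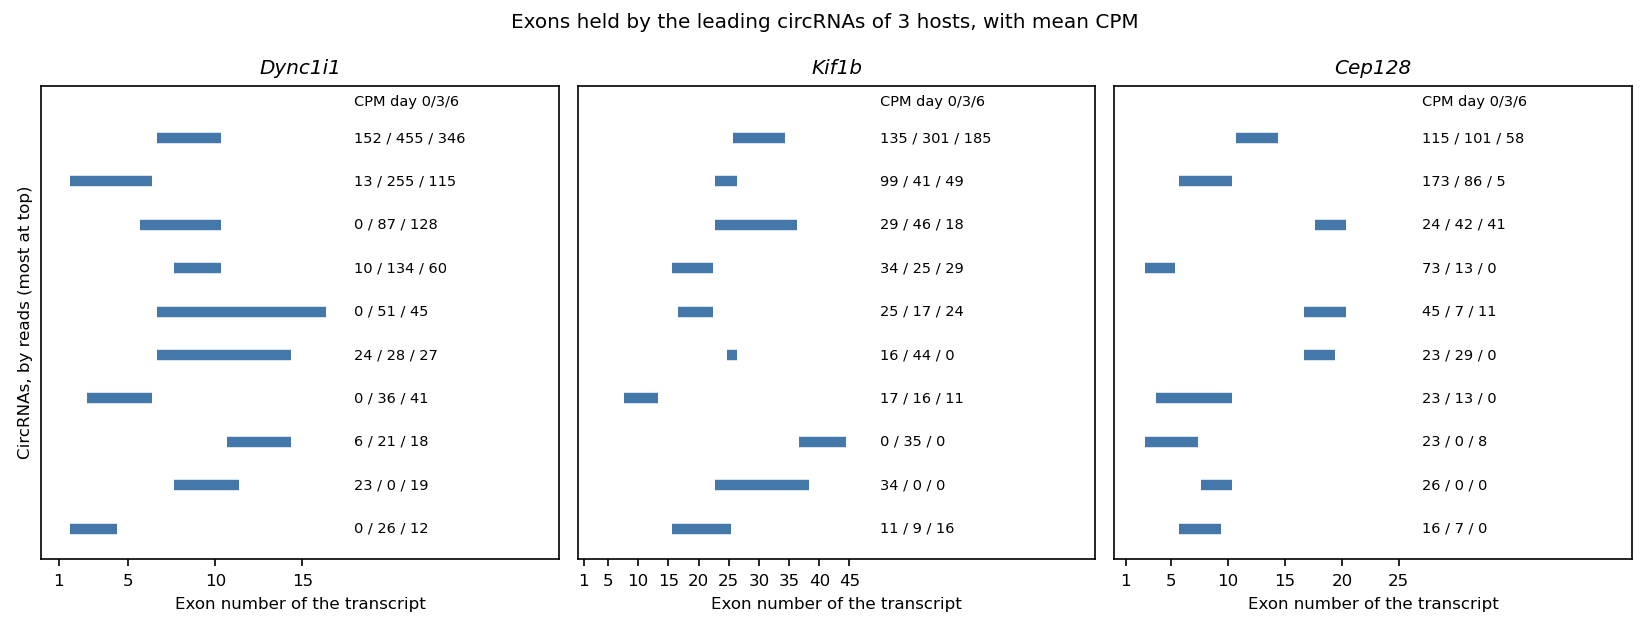
Exons (x axis, numbered along the transcript) held by the 10 circRNAs with the most reads, 1 bar each (most at the top), of Dync1i1, Kif1b and Cep128, with the mean CPM at days 0, 3 and 6 beside each bar. In Dync1i1, the 3 bars with the most reads start at exon 7, end at exon 6 or span both; in Cep128, bars that end at exon 10 or before carry 0 to 8 CPM at day 6.

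No other dynein host passed the test. Dync1h1, the heavy chain with the motor, stood at 178 ± 8.33, 199 ± 28.0 and 167 ± 62.3 CPM at days 0, 3 and 6, with ranges that overlapped (edgeR adjusted p = 1 and 0.991). Its main circle, exons 49 to 51 (chr12:110651491-110652194), held 60.6% of its reads. The light intermediate chain host Dync1li1 and the ciliary retrograde motor host Dync2h1 had log2 fold changes of -0.53 ± 1.09 and 0.92 ± 1.21 at day 3 and -0.87 ± 1.10 and 0.86 ± 1.21 at day 6. The sum over the 7 dynein hosts was 677 ± 11.2, 1583 ± 126 and 1263 ± 49.2 CPM. Without Dync1i1 it was 411 ± 52.7, 452 ± 152 and 351 ± 130, with overlap between all days.

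**Figure D4:**
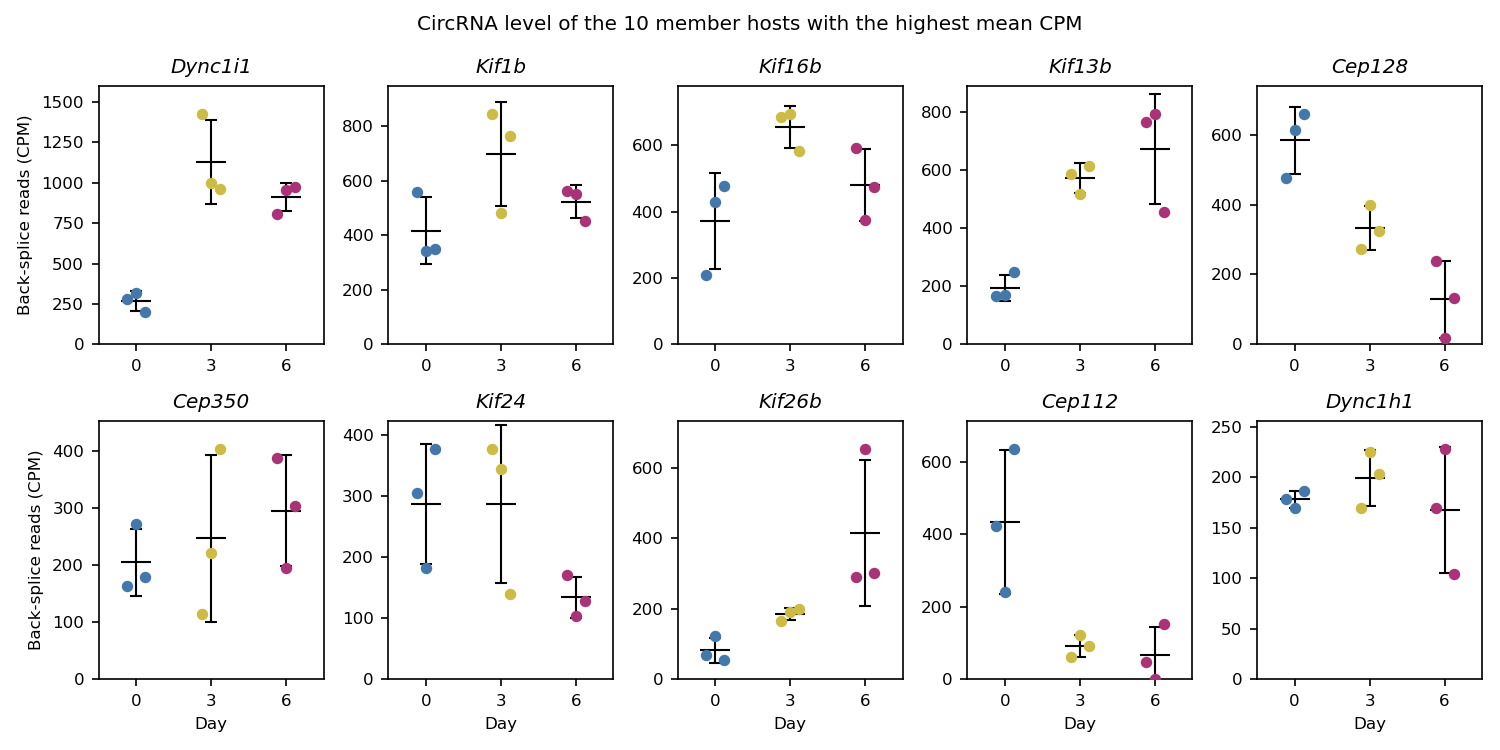
CPM of back-splice reads (y axis, from 0, a scale of its own per panel) summed per host at days 0, 3 and 6 (x axis) for the 10 member hosts with the highest mean CPM; points are libraries and bars the mean ± SD (n = 3), cut off at 0. Days 3 and 6 lie wholly above day 0 for Dync1i1, Kif13b and Kif26b and wholly below it for Cep112 and Cep128.

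The 14 hosts of transport kinesins summed to 1277 ± 252 CPM at day 0, 2230 ± 201 at day 3 and 2035 ± 338 at day 6. Of these sums, Kif1b, Kif16b and Kif13b held 416, 372 and 194 CPM at day 0. They held 697, 655 and 572 CPM at day 3 and 523, 480 and 671 at day 6. Among these hosts only Kif13b passed, and no sum was made of the others, so the sums do not speak for the other transport kinesin hosts. Kif13b (ENSMUSG00000060012), a kinesin-3 motor that walks to the plus ends of microtubules, had 166.9, 169.4 and 246.8 CPM at day 0, 586, 516 and 613 at day 3 and 766, 793 and 454 at day 6. The later libraries were all above those of day 0. It rose 2.94-fold at day 3 (log2 fold change 1.56 ± 0.36, edgeR adjusted p = 0.00506) and 3.44-fold at day 6 (1.78 ± 0.36, 0.000907), and passed at both days under every alternative tried. The 25 Kif13b circles were led by exons 18 to 22 (760 bases, 41.3% of its reads) with 0, 25 and 29 reads at day 0, 73, 89 and 94 at day 3 and 61, 67 and 71 at day 6. That circle did not pass by itself (1.96 ± 0.77 at day 3, edgeR adjusted p = 0.363, and 1.76 ± 0.76 at day 6, 0.354). A circle of exons 16 to 18 (chr14:64746299-64748608) had no reads at day 0, 23, 0 and 52 at day 3 and 10, 25 and 23 at day 6. DESeq2 called it higher at both days, and edgeR did not.

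Kif1b, which carries mitochondria and synaptic vesicle precursors, had the most circles of any member, 41. Its level was 416 ± 122, 697 ± 191 and 523 ± 59.9 CPM, with overlapping ranges (log2 fold change 0.74 ± 0.33 at day 3 and 0.32 ± 0.33 at day 6, edgeR adjusted p = 0.304 and 0.773). Its 2 circles found in all libraries share exon 26. The circle of exons 26 to 34 (chr4:149206718-149222364, 1151 bases) had 74, 19 and 25 reads at day 0, 112, 53 and 122 at day 3 and 49, 61 and 37 at day 6. The circle of exons 23 to 26 (chr4:149222227-149226356, 560 bases) had 41, 14 and 29, then 15, 8 and 16, then 19, 8 and 12. Their estimates at day 3 had opposite signs, 1.15 ± 0.64 and -1.26 ± 1.52, but neither passed (edgeR adjusted p = 0.425 and 1), and the difference between them was not tested.

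Kif16b, which moves early endosomes, stood at 372 ± 144, 655 ± 62.0 and 480.4 ± 108 CPM. Its day 3 libraries were all above day 0 (0.82 ± 0.35), but it did not pass (edgeR adjusted p = 0.281). Its 2 main circles end at the same exon, exon 12, before an intron of 75167 bases, and start at exon 4 or at exon 3. The lower-case bases are thus shared.
Kif16b exons 4 to 12 (chr2:142834077-142857427, minus strand): cagaatattttgaaaGTTTTCAAAACTCTG
Kif16b exons 3 to 12 (chr2:142834077-142862540, minus strand): cagaatattttgaaaATACCAGAAGGAGGA
The shorter circle (1071 bases) had 25, 29 and 39 reads at day 0, 72, 80 and 98 at day 3 and 46, 34 and 59 at day 6. The longer one (1185 bases) had 18, 28 and 18, then 56, 50 and 53, then 28, 30 and 94. Both were higher in every day 3 library than at day 0 in CPM, and neither passed (edgeR adjusted p = 0.428 and 0.673). Both lengths are multiples of 3.

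Kif3a, a kinesin-2 motor that moves cargo into cilia, gave 1 circle, exons 3 to 6, with no reads at day 0, 25, 0 and 12 at day 3 and 38, 7 and 0 at day 6. On the host level it was at least 3.63-fold higher at day 3 and at least 6.67-fold at day 6 against the floor of 3 reads per library, but it did not pass (edgeR adjusted p = 0.289 and 0.173). The kinesin-4 host Kif21a had the next largest estimate at day 3, 1.67 ± 2.10 (adjusted p = 0.958). The 3 kinesin-1 heavy chain hosts Kif5a, Kif5b and Kif5c had 8, 41 and 16 reads in all and were not tested.

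Kif26b (ENSMUSG00000026494) belongs to a kinesin branch without detectable ATPase activity. It had 68.5, 122 and 53.2 CPM at day 0, 166, 189.6 and 200.5 at day 3 and 291, 655 and 300.1 at day 6. No 2 days overlapped. It rose 5.10-fold at day 6 (log2 fold change 2.35 ± 0.59, edgeR adjusted p = 0.00953), while the day 3 value of 1.19 ± 0.58 did not pass (0.367). The day 6 call was lost without day 0 replicate 3 (adjusted p = 0.0509) and without day 6 replicate 2 (1.87 log2, 0.218). Its main circle is the single exon 3, 534 bases between introns of 148035 and 36443 bases. It is listed in circBase, as are 7 of the 413 member circRNAs (1.69%), against 2.74% of all circRNAs with a host. It had 15, 31 and 0 reads at day 0, 51, 13 and 51 at day 3 and 47, 88 and 75 at day 6 (2.15 ± 0.92 at day 6, adjusted p = 0.343). Kif24, a kinesin-13 protein that restrains cilium formation, was at 287 ± 98.4, 287 ± 129 and 134 ± 33.5 CPM. All its day 6 libraries were below day 0, without passing (-1.10 ± 0.56, edgeR adjusted p = 0.297). Its circle of exons 4 to 9 held 87.4% of its reads and was found in all 9 libraries.

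Hosts of mitotic kinesins went the other way in their sum, but none passed singly. Their 8 hosts summed to 529 ± 134 CPM at day 0, 75.8 ± 46.8 at day 3 and 31.8 ± 29.0 at day 6, and no later library reached a day 0 library. All 8 had reads at day 0, 4 at day 3 and 2 at day 6. These counts depend on the choice by hand of the 8 hosts, which are those named in this paragraph up to the untested ones. Cenpe (6 reads, all in 1 day 3 library) was counted with the Cenp hosts, and Kif2a with other kinesin-named hosts. The chromokinesin host Kif4 had 21, 10 and 48 reads at day 0, 3, 0 and 0 at day 3 and none at day 6, at least 8.22-fold lower at day 6 (edgeR adjusted p = 0.147; called by DESeq2). Kif15, which helps hold spindle poles apart, had 63, 0 and 39 reads at day 0, 6, 0 and 0 at day 3 and none at day 6, at least 9.72-fold lower (adjusted p = 0.124). Kif4 had -4.69 ± 2.60 and Kif15 -4.02 ± 2.41 at day 3 (0.421 and 0.485). One day 0 library had no Kif15 read, so its days overlapped. The hosts of the cytokinesis motors Kif23 and Kif20a had 67, 42 and 14 and 40, 8 and 13 reads at day 0, then 7, 13 and 37 and 0, 0 and 7, then 0, 0 and 24 and 0, 9 and 0. Kif2c, Kif11, Kif18a and Kif18b had 35 reads or fewer each and were not tested.

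The 28 Cep hosts summed to 1978 ± 314 CPM at day 0, 1537 ± 429 at day 3 and 1031 ± 179 at day 6. The day 6 libraries were all below those of day 0. Of these sums, Cep128 and Cep112, the hosts that passed, held 584 and 434 CPM at day 0 and 129 and 66.6 at day 6. Cep350, the other Cep host among the 10 members with the highest mean CPM, had 205 and 295 CPM. No sum was made without Cep128 and Cep112, so the lower family sum does not speak for the other Cep hosts. Cep112 (ENSMUSG00000020728), a coiled-coil protein of the centrosome, had 423, 240.3 and 638 CPM at day 0, 61.8, 122.9 and 91.4 at day 3 and 48.5, 0 and 151 at day 6. All later libraries were below day 0. It fell by 2.65 ± 0.79 on the log2 scale at day 6 (edgeR adjusted p = 0.0394), and stood at -2.23 ± 0.78 at day 3 (0.129; 0.0221 by DESeq2). The day 6 call was lost with a minimum count of 10 (0.0627), in a fit of the 2 days only (0.149), without day 0 replicate 3 (0.268) and without day 6 replicate 2 (0.0703). Its circle of exons 3 to 5 (478 bases, 87.4% of its reads) had 109, 61 and 156 reads at day 0, 19, 35 and 31 at day 3 and 10, 0 and 42 at day 6. The circle fell by 3.01 ± 0.82 at day 6 (adjusted p = 0.0327), and this call was lost in the same settings, with no filter and without day 6 replicate 1, at adjusted p = 0.0575 to 0.393.

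Cep128 (ENSMUSG00000061533) encodes a protein of the subdistal appendages, which anchor microtubules at the older centriole. Its level was 477, 615 and 661 CPM at day 0, 273.3, 400.4 and 324 at day 3 and 238, 17.2 and 132 at day 6. The 3 days did not overlap. It fell by 2.18 ± 0.52 on the log2 scale at day 6 (edgeR adjusted p = 0.00608), and was at -0.81 ± 0.50 at day 3 (0.497). The call was lost only in the fit of days 0 and 6 alone (0.0925), among the settings run. Day 6 replicate 2 had 17.2 CPM for Cep128 and 0 for Cep112. It held 243471 reads, against 208787 in replicate 1 and 443955 in replicate 3, and the part of depth was not tested.

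The circles of Cep128 were also read by their place along the gene. The circle of exons 6 to 10 (525 bases) had 46, 59 and 37 reads at day 0, 29, 16 and 37 at day 3 and 0, 4 and 0 at day 6. Its estimate at day 6 was -4.96 ± 1.47 (edgeR adjusted p = 0.0615). The neighbouring circle of exons 11 to 14 (447 bases), across an intron of 26437 bases, had 42, 29 and 26, then 23, 39 and 32, then 27, 0 and 22 (-1.0 ± 1.19, 0.936). Split at that intron, the 10 circles that end at exon 10 or before had 100, 117 and 90 reads at day 0, 44, 27 and 59 at day 3 and 0, 4 and 10 at day 6. The 7 circles that start at exon 11 or later had 60, 39 and 84, then 36, 87 and 51, then 49, 0 and 46. In CPM the first set went from 374 ± 70.7 to 13.3 ± 12.1 between days 0 and 6, without overlap, and the second from 224 ± 97.3 to 110 ± 110, with overlap. This split was chosen after the values had been seen, and the difference between the sets was not tested.

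Other Cep hosts did not pass. Cep350, a centriolar protein that binds microtubules, was at 205 ± 58.6, 246 ± 147 and 295 ± 97.2 CPM, with overlapping ranges (edgeR adjusted p = 1 and 0.779), and 45.4% of its reads came from exons 2 to 5, a circle listed in circBase. Cep152, a scaffold for the start of centriole duplication, had log2 fold changes of -2.77 ± 1.95 at day 3 (adjusted p = 0.624) and of -0.75 ± 1.83 at day 6 (0.958). Cep83, a protein of the distal appendages needed for cilia, gave 1 circle in all 9 libraries (exons 8 to 10, chr10:94748941-94750659) with 117 ± 45.6, 197 ± 75.3 and 98.2 ± 48.5 CPM.

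The 10 Cenp hosts summed to 315 ± 71.1 CPM at day 0, 147 ± 148 at day 3 and 61.3 ± 70.2 at day 6. Reads were listed for 9 of them at day 0, 5 at day 3 and 4 at day 6, and none passed the test. Cenpc1, whose product binds centromeric nucleosomes, had reads in 5 libraries and log2 fold changes of 0.20 ± 2.12 and -1.04 ± 2.14. Cenpu, Cenpi, Cenph and Cenpo belong to the constitutive centromere network. Cenpu had 83.5, 67.0 and 30.4 CPM at day 0, 0, 35.1 and 82.6 at day 3 and none at day 6, at least 5.23-fold lower (edgeR adjusted p = 0.177; called by DESeq2). Cenpi had 41.7, 35.5 and 121 CPM at day 0, none at day 3 and 0, 0 and 18.9 at day 6. It was at least 6.82-fold lower at day 3 (adjusted p = 0.281) and at -3.25 ± 2.70 at day 6 (0.638). Cenph had no reads at day 6 and overlapped with day 0, where 1 library had none. Cenpo had reads in 5 libraries, with -2.92 ± 2.83 at day 3 (adjusted p = 0.855) and 0.09 ± 2.65 at day 6 (0.997).

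Augmin hosts were sparse, at 85.7 ± 35.8, 29.1 ± 25.7 and 58.7 ± 13.0 CPM over 4 hosts. Haus1 and Haus8, the 2 with the highest mean CPM, had reads in 5 and 4 libraries, overlapped between all days and had log2 fold changes within 1 SE of 0. The 3 axonemal dynein hosts had 21 reads in all and none was tested. Dnah17 had 14 reads in 1 day 0 library, from a circle on the strand opposite to the gene, and Dnah10 had 5 in 1 day 6 library.

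Between days 3 and 6 no member host passed the edgeR test, against 0.0242% of all tested hosts higher and 0.0484% lower, and DESeq2 called none either. At an unadjusted p of 0.05, 1 was higher (Kif26b; 2.5%, against 2.3% of all) and 3 were lower (Cep128, Cenpu and Cenph; 7.5%, against 3.65%). No member circRNA passed, against 0.00% of all tested circRNAs higher and 0.0613% lower. DESeq2 again called none, and at an unadjusted p of 0.05 there were 0 higher, against 1.77% of all, and 2 lower (2.82%, against 2.58%). Kif26b (1.16 ± 0.56) and Cep128 (-1.37 ± 0.52) had no overlap between these days but edgeR adjusted p = 0.736 each. Cenpo (3.01 ± 2.84) and Cep152 (2.02 ± 1.90) had larger estimates, with overlap and adjusted p = 1.

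Of 77 other microtubule genes listed as partners (tubulins, dynactin, kinesin light chains, plus-end and minus-end proteins, spindle and centriole factors), 66 had circRNAs and 51 were tested. At day 3, 2 were higher and 1 lower, and at day 6, 2 higher and 2 lower, where the shares over all tested hosts were 3.05% and 0.895%, then 3.85% and 1.79%. Macf1, which links actin to microtubules, rose by 2.41 ± 0.26 at day 3 and 2.78 ± 0.26 at day 6 on the log2 scale (edgeR adjusted p = 3.33e-08 and 9.91e-10). Mid1, a ubiquitin ligase bound to microtubules, rose by 2.27 ± 0.53 and 2.78 ± 0.54 (0.00535 and 0.000454). Its day 3 libraries (511, 109 and 602 CPM) overlapped with those of day 0 (152, 39.4 and 57.0 CPM). The spindle protein gene Spag5 fell by 2.20 ± 0.26 at day 3 (2.37e-07), with a log2 fold change of -3.96 ± 0.29 at day 6 (1.15e-12) and of -1.76 ± 0.27 between days 3 and 6 (0.00064). Ckap5, a microtubule polymerase, fell by 1.07 ± 0.31 at day 6 (0.0288). The kinesin light chain host Klc1 and the minus-end protein host Camsap1, with the highest mean CPM of the list (1918 and 1844), did not pass. The median log2 fold change of the 51 was 0.11 at day 3 and 0.14 at day 6.

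In structure the member circles were close to the rest of the table, with some differences in where they start. Exonic circles made up 93.2% of them and 89.8% of all circRNAs with a host. The median circle held 5 exons and 599 bases, against 4 exons and 585 bases. Circles that start at exon 2 made up 15.2% of placed member circles and 25.4% of all. The introns that flank the placed member circles had medians of 3156 bases upstream and 2682.5 downstream, against 4942 and 3491 for all placed circles. The spliced length was a multiple of 3 in 39.5% and 38.2%. Circles seen in 1 library were 67.6% of the members' and 61.0% of all, and those in all 9 libraries 7 (1.69%) and 4.02%. These shares are a description, as circles of 1 host are not independent, and depth per circle moves with several of them.

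Part of the kinesin circles hold the core of the motor. The phosphate-binding loop (P-loop) of the motor domain, which grips ATP, was found in the translated transcripts of 26 kinesin hosts with 148 placed circles. It lay inside 26 of these circles, from 14 hosts, which held 2031 of 6174 reads (32.9%). Both main Kif16b circles (P-loop at residue 102), the Kif24 circle (residue 308) and the Kif3a circle (residue 100) hold it. The leading circles of Kif13b and Kif1b lie downstream of it, at residues 675 to 928 and 846 to 1230. A match says that the letters are in the circle, not that it is translated.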

How the data were processed

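Back-splice reads were measured in 9 libraries of C2C12 cells, 3 per time point. The authors deposited 1 table of read counts per circRNA and library, with locus, type, host gene and circBase name. Per the submitters' processing notes, BWA and the mouse build GRCm38.p4 (mm10) were used. For the circRNA caller, all versions, any filters and duplicate reads, the entry is "not given in the sources used here". Reads carry no molecular identifiers and may repeat 1 molecule, so the floor of 3 reads covers counting error only.

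Host identifiers were matched to GENCODE M21 (GRCm38) symbols, and 83 of 6943 hosts (145 circRNAs) had none. Circle starts and ends lay on an annotated exon edge for 87.7% and 87.7% of circRNAs with a host. Exon numbers, lengths and junction letters come from the transcript that holds both edges. For 5 member circRNAs the strand is opposite to the host's.

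Counts per circRNA, and summed per host, were tested with edgeR 4.0.16 (R 4.3.3; quasi-likelihood F-test, TMM factors, filterByExpr with minimum count 5 and minimum total 15, all 9 libraries, 6 residual degrees of freedom). P-values were adjusted by Benjamini-Hochberg over all 4135 tested hosts or 8153 tested circRNAs, with a threshold of 0.05. CPM are reads scaled to a common TMM-adjusted library total, and fold changes use a prior count of 0.125. A day with no reads gives a bound against 3 reads per library. The test was tried on simulated data. Alternatives were DESeq2 1.42.0, library-size scaling, a minimum count of 10, no filter, 2 days only, a replicate block, circRNAs in at least 2 libraries, and leaving out each library.

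The text names hosts past the threshold, the 10 with the highest mean CPM, the 2 highest per family, the 3 largest and 3 smallest log2 fold changes per comparison, the leading circRNAs of these hosts, circRNAs in all 9 libraries, and partner genes past the threshold or among the 3 highest. Members and lists were chosen with earlier results of these data known. Other hosts and circles named were chosen after their values were seen.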

Additional observations from a re-analysis of the deposited data

How the results depend on the processing

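Dync1i1 and Kif13b passed at days 3 and 6 under each alternative run, with adjusted p of at most 0.00609 and 0.0291. No value changed sign among the called ones. At day 6 the count of member hosts, 5 in the report, was 8 with DESeq2 (Kif3a, Cenpu and Kif4 added; 10% higher and 10% lower, against 5.95% and 5.18% of all tested hosts), 3 in a fit of days 0 and 6 only, and 3 to 6 when 1 library was left out; the low value came without day 0 replicate 3 and without day 6 replicate 2. Leaving out 1 library gave 2 to 3 hosts at day 3. For circRNAs (2 at each day), DESeq2 gave 5 at day 3 and 6 at day 6. Those at day 6 were 3 higher and 3 lower, 4.23% each, against 3.34% and 2.38% of all tested circRNAs. A minimum count of 10 gave 0 and 0, no filter 0 and 1, and the fit of 2 days 0 and 0. Leaving out 1 library gave 0 to 2 and 0 to 2. Same-numbered libraries did not deviate together (correlations of -0.0294 to 0.0088). A replicate block left 1 circRNA at day 3, the Dync1i1 circle of exons 2 to 6, and moved the median log2 fold change of tested members between days 3 and 6 from -0.38 to -0.96, and changed no call of a member host. Scaling by library size moved the median of all hosts at day 3 from -0.02 to -0.15, and the share of higher hosts among calls from 77.3% to 67.1% (59.1% with DESeq2), and at day 6 from 68.2% to 57.6% (53.5%). With circRNAs in at least 2 libraries only, the members' sums were 4228, 5280 and 4413 CPM. The cause of these shifts was not tested. The median member had 35 reads over the 9 libraries. The trial on simulated data was not split by depth or by member, so it does not say which changes this depth could show.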
